A study of Mus musculus with 26 samples.

Results

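The genes described here are 9 genes of the differentiated, absorbing surface cells of the colon: *Slc26a3*, *Car1*, *Car4*, *Aqp8*, *Guca2a*, *Slc17a4*, *Slc26a2*, *Hsd11b2* and *Scnn1b*. They were chosen by name, with earlier results of these data known, and are 9 of the 35975 genes to which the transcripts of the 26 samples were matched. The study followed colitis-associated tumour growth in mice fed a standard diet or the same diet with GW3965, a synthetic agonist of the liver X receptors (LXR). All mice were wild-type C57BL/6J males from Taconic, about 10 weeks old at the start. The carcinogen azoxymethane (AOM) was injected once at 10 mg/kg and was followed by 3 cycles of dextran sodium sulfate (DSS) in the drinking water, which injures the colonic epithelium. By the study's schedule day 22 came after the first cycle, day 43 after the second and day 70 after the third, so day and number of cycles cannot be told apart. Poly(A) RNA from the colon was sequenced as paired ends.

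Each diet had 3 samples at day 22, 3 at day 43 and 3 at day 70 after AOM. The controls, called day 0, received neither AOM nor DSS and numbered 4 per diet, of which 2 had eaten their diet for 22 days and 2 for 43 days. No control had eaten its diet for 70 days. Age and time on diet therefore cannot be told apart from treatment in comparisons of day 70 with day 0. One day 0 sample carried GW3965 in its title and the standard diet in its diet label, and it was placed by its title. The samples were biopsies of distal colon, the part that corresponded to tumour areas by the study's methods. The study's reporting summary states that a few mice were pooled into each bulk sample, while a figure legend gives 3–4 mice per timepoint. The labels of these samples name no pool. P-values therefore measure the spread between samples, and whether each sample was a pool or 1 mouse is uncertain. The labels name 10 cages. Within a diet, days 22 and 43 shared 1 cage and day 0 had another, while no cage was shared at day 70. Cage and treatment therefore cannot be told apart between day 0 and days 22 and 43, nor can cage and diet at those days.

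The mature colonocyte takes up salt and water from the gut lumen and hands bicarbonate back. Apical exchangers swap chloride for bicarbonate, carbonic anhydrases supply that bicarbonate, aquaporins pass water, and the epithelial sodium channel, which answers to aldosterone, takes up sodium in the distal colon. These genes are switched on as cells leave the crypt and reach the surface, and they are known to be low in inflamed colon and in colonic tumours.

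Promoters are shown for the members whose levels diverged furthest, because on the standard diet *Slc26a3*, *Car4* and *Aqp8* fell furthest by day 70 and *Guca2a* had the smallest change. RefSeq entries were matched for 5 of the 9 members, and windows of 300 bases that span the start of the leading transcript of 4 of them are printed 5′ to 3′ on the plus strand of GRCm38.p6: *Slc26a3* at chr12:31437969-31438268, *Car4* at chr11:84957504-84957803, *Aqp8* at chr7:123462044-123462343 and *Guca2a* at chr4:119637482-119637781. Capitals mark TTTAT on either strand (ATAAA as printed where it lies on the other strand), letters that the caudal homeobox factors of the gut are known to bind and that also occur within TATA boxes.
Slc26a3: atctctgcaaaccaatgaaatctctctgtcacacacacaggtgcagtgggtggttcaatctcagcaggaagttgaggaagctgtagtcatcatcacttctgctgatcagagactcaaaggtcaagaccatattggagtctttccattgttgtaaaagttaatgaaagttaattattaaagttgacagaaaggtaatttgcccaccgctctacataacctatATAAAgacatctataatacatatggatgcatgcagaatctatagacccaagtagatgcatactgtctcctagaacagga
Car4: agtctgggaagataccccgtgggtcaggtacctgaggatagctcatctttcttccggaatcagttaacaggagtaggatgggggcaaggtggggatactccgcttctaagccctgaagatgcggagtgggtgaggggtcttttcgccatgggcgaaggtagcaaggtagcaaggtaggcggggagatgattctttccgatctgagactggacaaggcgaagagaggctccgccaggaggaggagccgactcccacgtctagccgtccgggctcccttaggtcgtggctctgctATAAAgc
Aqp8: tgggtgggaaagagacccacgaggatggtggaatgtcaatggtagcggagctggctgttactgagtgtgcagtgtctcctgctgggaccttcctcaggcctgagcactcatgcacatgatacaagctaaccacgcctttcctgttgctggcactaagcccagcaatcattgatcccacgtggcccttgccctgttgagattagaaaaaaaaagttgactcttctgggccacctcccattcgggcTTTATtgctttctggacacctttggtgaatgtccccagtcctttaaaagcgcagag
Guca2a: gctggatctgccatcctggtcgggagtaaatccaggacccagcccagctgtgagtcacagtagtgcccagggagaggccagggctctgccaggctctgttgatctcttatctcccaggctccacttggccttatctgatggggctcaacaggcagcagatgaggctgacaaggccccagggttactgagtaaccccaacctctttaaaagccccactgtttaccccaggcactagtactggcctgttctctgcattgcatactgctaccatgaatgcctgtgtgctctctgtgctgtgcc

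TTTAT was found 1 time each in the windows of *Slc26a3*, *Car4* and *Aqp8* and 0 times in those of *Guca2a* and *Scnn1b*, while 40.0% of 32851 promoter windows of the same length held it. In *Car4* the match is at the end of the window, past the start of the leading transcript at 84957788, and so within the transcript. Whether a match goes with the size of the fall was not tested. CAAAG, a core of HNF4 motifs, was found 1 time each in *Slc26a3*, *Aqp8* and *Scnn1b* and occurs in 53.9% of the windows. AGGTCA, the half-site of many nuclear receptors, which can share its first letters with the end of CAAAG, was found 1 time each in *Slc26a3* and *Scnn1b* and occurs in 16.3%. The LXR type of element, AGGTCA repeated directly after 4 bases, was in none of the 5 windows (0 matches) and in 0.015% of all windows. A match describes letters only.

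The libraries held 18195345 to 41522204 counts, with a median of 20424701. The largest was the standard diet day 43 replicate 1, whose RNA integrity number (RIN, where 10 is intact) was 2.6. Every day 0 sample had a RIN of 10. At day 43 the other standard diet samples had 8.4 and 7.8, and the GW3965 samples 8.0, 6.8 and 9.3. The share of counts on 88 ribosomal protein genes moved with the day as well: it was 5.33–6.51% over the 8 day 0 samples, 6.06–8.87% at day 22 on the standard diet, 6.67–10.7% at day 22 on the GW3965 diet, 14.4–18.6% at day 43 on the standard diet, 10.0–17.6% at day 43 on the GW3965 diet and 3.96–6.66% at day 70 over both diets. The RIN at day 22 was 9.6–10 on the standard diet and 9.1–9.6 on the GW3965 diet. Day 43 on both diets and day 22 on the GW3965 diet therefore had no overlap with day 0 in RNA quality or in ribosomal share, and fits were also run with each as a term.

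The members were all measured well. Each passed the filter on low counts that kept 17063 genes, so the counts below are over all 9. In TPM, the transcript abundance corrected for length and depth, by which levels of different genes can be compared, the order at day 0 on the standard diet was *Car1* (1236 ± 640.4 TPM, SD, n = 4), *Car4* (1004 ± 316.0), *Guca2a* (590.5 ± 161), *Slc26a3* (294 ± 116), *Aqp8* (255.5 ± 74.9), *Hsd11b2* (248 ± 58.1), *Slc26a2* (90.9 ± 28.7), *Scnn1b* (15.3 ± 9.09) and *Slc17a4* (11.96 ± 1.81). Neighbours from *Car1* to *Car4*, from *Slc26a3* to *Hsd11b2* and from *Scnn1b* to *Slc17a4* lay within 1 SD of each other. At day 70 on the same diet the order was led by *Guca2a* (345 ± 139 TPM, SD, n = 3), followed by *Car1* (97.1 ± 57.5) and *Hsd11b2* (75.9 ± 15.6), and *Slc26a3* stood at 7.83 ± 1.55 TPM beside *Scnn1b* at 7.85 ± 3.53.

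*Slc26a3* encodes the apical chloride–bicarbonate exchanger, whose loss in people causes congenital chloride diarrhoea. In CPM, counts scaled to library size with edgeR's TMM factors, it had 934.6, 568.0, 359.1 and 714.3 in the day 0 samples of the standard diet. The day 22 samples had 489.8, 106.4 and 96.1 CPM, the day 43 samples 40.4, 34.2 and 35.9, and the day 70 samples 18.6, 12.8 and 17.8. Replicate 1 of day 22 lay within the day 0 range and the other day 22 samples far below it, whereas in CPM days 43 and 70 did not overlap with any earlier day. The mean CPM at day 70 was 2.54% of that at day 0. In TPM days 43 and 70 overlapped, with means of 7.90 and 7.83.

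With GW3965 the same gene had 1012, 715.5, 493.1 and 592.4 CPM at day 0, then 193.4, 132.2 and 207.9 at day 22, 60.3, 91.9 and 102.3 at day 43, and 6.09, 116.3 and 16.9 at day 70. No sample after AOM and DSS reached the day 0 range. Replicate 2 of day 70 stood above every day 43 sample and the other day 70 samples below all of them.

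*Car4*, the membrane-anchored carbonic anhydrase of the brush border, had 1077, 814.4, 497.4 and 964.0 CPM at day 0 on the standard diet, 739.4, 259.4 and 233.1 at day 22, 32.1, 119.7 and 119.7 at day 43, and 14.2, 8.40 and 17.7 at day 70. On the GW3965 diet it had 1236, 695.5, 510.5 and 622.1 CPM at day 0, 380.6, 266.9 and 474.3 at day 22, 122.3, 200 and 68.4 at day 43, and 6.09, 98.1 and 20.1 at day 70. In CPM days 43 and 70 did not overlap with any earlier day on the standard diet, while on the GW3965 diet day 70 overlapped with day 43 and edgeR called 0 of the 3 steps from one day to the next. Replicate 1 of day 22 on the standard diet and replicate 2 of day 70 on the GW3965 diet were again the highest of their groups. *Aqp8*, the water channel of the surface epithelium, had 295.3, 243.1, 174.7 and 335.3 CPM at day 0 on the standard diet, 406.2, 139.8 and 164.2 at day 22, 7.15, 59.8 and 77.9 at day 43, and 6.41, 3.48 and 9.77 at day 70. Replicate 1 of day 22 was thus above the day 0 range and the other day 22 samples just below it. GW3965 samples of *Aqp8* had 419.1, 335.1, 269.8 and 222.7 CPM at day 0, 251.5, 127.2 and 294.0 at day 22, 94.5, 144.2 and 76.8 at day 43, and 3.48, 101.8 and 14.7 at day 70. Day 22 overlapped with day 0 there, and days 43 and 70 did not.

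*Car1*, the abundant cytosolic carbonic anhydrase of colonocytes, was low by day 22. It had 1519, 685.8, 462.0 and 1183 CPM at day 0 on the standard diet and 133.5, 136.4 and 149.0 at day 22, followed by 30.9, 61.0 and 59.6 at day 43 and 120.4, 43.8 and 53.8 at day 70. With GW3965 the values were 1352, 1063, 417.4 and 952.6 CPM at day 0, 76.9, 51.7 and 72.2 at day 22, 78.1, 64.3 and 150.4 at day 43, and 26.3, 81.2 and 99.5 at day 70. All later samples of both diets lay below all day 0 samples, and on the GW3965 diet days 22, 43 and 70 overlapped with each other.

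*Slc26a2*, a sulfate transporter, and *Hsd11b2*, the enzyme that inactivates glucocorticoids and so leaves the mineralocorticoid receptor to aldosterone, had their lowest mean at day 43 on the standard diet. *Slc26a2* had 322.4–755.2 CPM at day 0 and 118.4–486.8, 42.8–74.6 and 57.6–106.8 on the later days there. *Hsd11b2* had 265.1–395.4 CPM, then 163.1–414.8, 50.6–77.6 and 79.2–117.9. For *Hsd11b2* every day 70 sample was above every day 43 sample, a mean of 29.6% of day 0 at day 70 against 19.7% at day 43, but the difference did not pass the test (log2 fold change 0.59, SE 0.38, adjusted P = 0.204, edgeR). In TPM its means were 22.7 at day 43 and 75.9 at day 70, a larger step than in CPM. With GW3965 *Hsd11b2* went from 357.6–536.5 CPM at day 0 to 109.8–127.9, 91.6–123.7 and 29.6–137.1, and *Slc26a2* from 552.0–797.0 to 101.6–153.0, 73.7–119.7 and 73.8–239.2.

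*Scnn1b*, a subunit of the epithelial sodium channel, was among the 2 members of lowest level. On the standard diet it ranged over 15.4–53.1 CPM at day 0 and over 9.40–26.9, 4.02–30.7 and 7.04–20.2 on days 22, 43 and 70, so each later day overlapped with day 0. Its highest day 43 value, 30.7 CPM, was in replicate 1, the sample with a RIN of 2.6, and the others had 4.02 and 7.72. With GW3965 it had 14.1–32.8 CPM at day 0 and 3.27–5.71, 3.79–5.41 and 5.37–8.27 later, with no overlap. A gene on the opposite strand, *Cog7*, overlaps with *Scnn1b*, and processed pseudogenes lie within *Slc26a3* and *Car1*, so counts of these 3 members could include reads of another transcript.

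*Guca2a*, which encodes guanylin, the peptide that switches on guanylate cyclase C and with it chloride secretion, had the highest share of its day 0 mean at day 70 on the standard diet, 55.9%. The standard diet samples had 193.2, 111.7, 188.4 and 199.2 CPM at day 0, 148.1, 96.96 and 112.8 at day 22, 88.9, 97.5 and 165.1 at day 43, and 139.2, 64.7 and 86.5 at day 70, with overlap between all days. On the GW3965 diet it had 187.5, 102.7, 80.9 and 132.7 CPM at day 0, 58.1, 73.6 and 120.6 at day 22, 92.5, 181.9 and 107.5 at day 43, and 11.7, 53.0 and 40.2 at day 70. There the day 70 samples alone stood below all earlier ones.

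*Slc17a4*, a transporter of organic anions and phosphate at the apical membrane, was the 1 member called in the test, given further on, of whether the change by day 22 differed between the diets, and that call held in 4 of 23 alternatives. On the standard diet it had 27.4, 24.9, 23.7 and 20.9 CPM at day 0 and 49.6, 34.0 and 31.1 at day 22, then 10.7, 8.67 and 12.7 at day 43 and 7.46, 8.53 and 15.98 at day 70. With GW3965 it had 34.2, 28.1, 31.95 and 28.0 CPM at day 0, 9.36, 7.52 and 9.74 at day 22, 17.6, 17.3 and 9.80 at day 43, and 3.69, 12.4 and 10.3 at day 70. In CPM the day 22 samples of the standard diet were all above their day 0 samples, a rise that did not pass the test, and those of the GW3965 diet all below theirs. In TPM 2 of the 3 standard diet samples, at 14.24 and 14.18, lay below the highest day 0 sample, at 14.46. Its counts were spread over 5 transcripts, of which the leading one held 30.3% and is annotated as a target of nonsense-mediated decay. Protein-coding transcripts held 32.5–46.0% of its counts over the groups. Counted over protein-coding transcripts alone, the day 22 samples had 12.5–16.8 CPM on the standard diet and 2.65–3.40 on the GW3965 diet.

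Overlap between days is given above in CPM, and TPM, which carry no TMM factor and were not tested, differ in part. On the standard diet *Slc26a3* and *Car4* overlapped between days 43 and 70 in TPM (6.91–8.81 and 6.04–8.83, and 22.5–72.2 and 10.3–23.2), while every day 70 sample was above every day 43 sample for *Car1* (57.0–162.9 against 19.3–39.4), *Slc26a2* (9.38–18.4 against 3.29–5.63), *Hsd11b2* (60.3–91.55 against 18.25–25.01) and *Slc17a4* (3.77–7.88 against 2.23–2.79). *Guca2a* was at 152.6–244.4 TPM at day 43 there, below every sample of day 0 (351.9–704.8) and day 22 (256.2–419.4), and *Scnn1b* at day 43 was below every day 0 sample (1.08–7.77 against 8.28–28.7). On the GW3965 diet *Guca2a* at days 22 and 43 (165.3–244.4 and 171.1–263.5) was below every day 0 sample (284.3–611.6), and its day 70 samples overlapped with day 43. There *Aqp8* at day 22 (103.9–204.0) was below every day 0 sample (229.2–391.4) and above every day 43 sample (49.3–58.97), *Slc17a4* overlapped between days 22 and 43, and every day 70 sample of *Scnn1b* was above every day 43 sample (3.07–4.67 against 0.843–1.96).

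**Figure D1:**
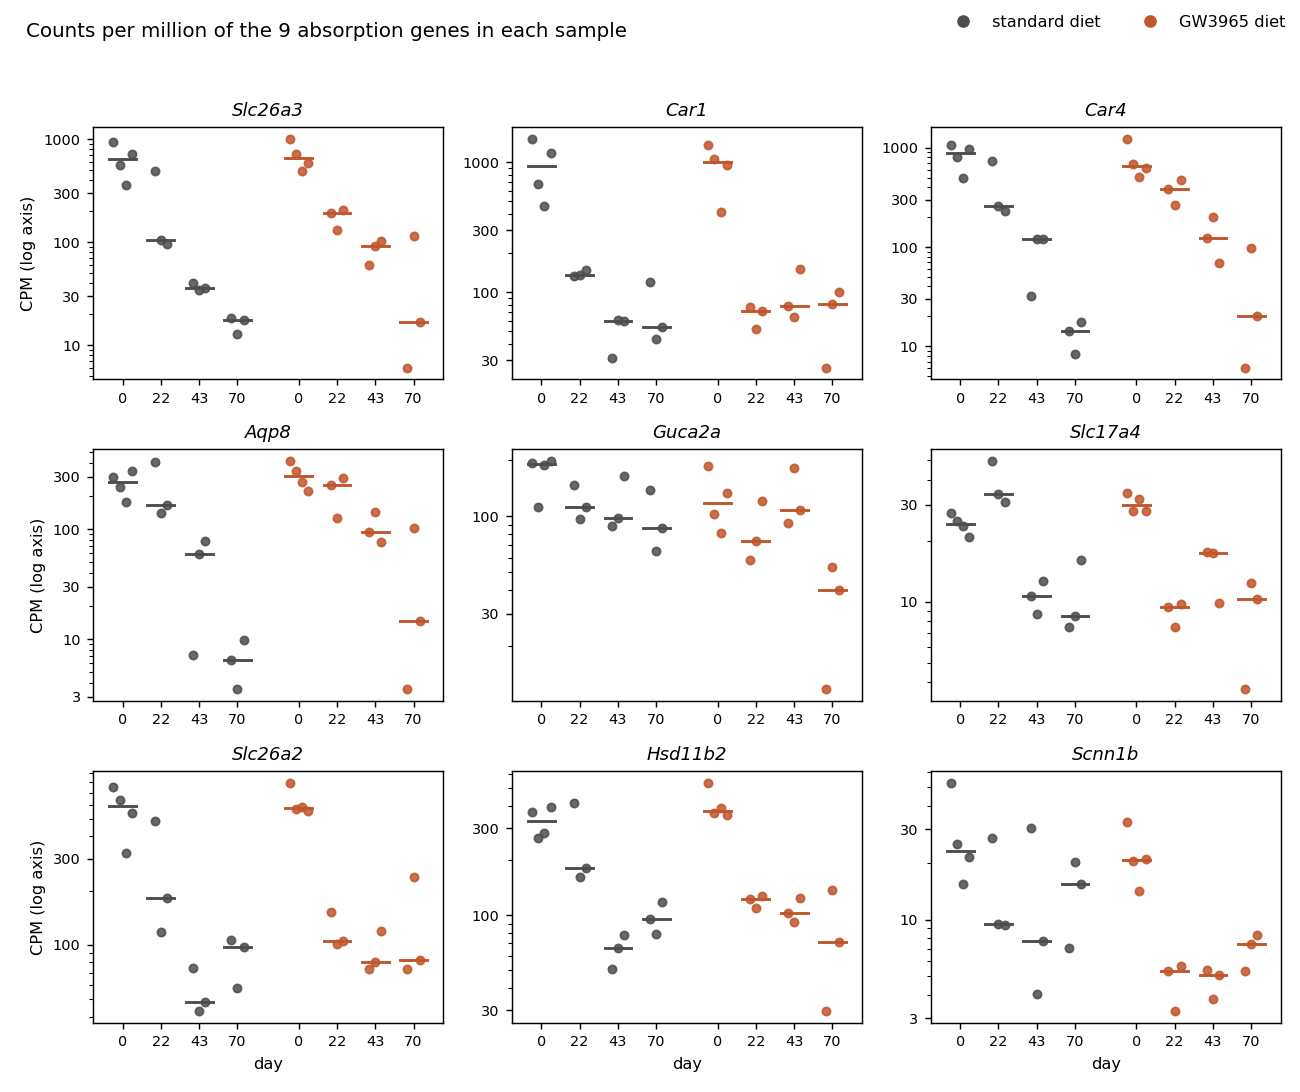
CPM of each member (log axis) in each of the 26 samples by day, with standard diet samples in grey and GW3965 samples in orange, and a line at each group's median. *Slc26a3*, *Car4* and *Aqp8* have their lowest samples at day 70, *Car1* is low by day 22, *Guca2a* overlaps between days on the standard diet, and GW3965 day 70 replicate 2 lies above the other day 70 samples of that diet for 7 of 9 genes.

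Each day was next compared with day 0 of the same diet in an edgeR fit over all 17063 genes, with P-values adjusted over all of them and called under 0.05. These comparisons share the day 0 samples of a diet and are not independent. In bulk tissue, fewer colonocytes and less RNA per colonocyte cannot be told apart.

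By day 22 on the standard diet 1 of 9 members was called, *Car1*, which was lower (log2 fold change -2.78, SE 0.52, adjusted P = 0.002), against 9.55% of all genes called in either direction and 1.99% called lower. The median log2 fold change of the members was -0.91, and that of all genes 0.01. Without replicate 1 of day 22, the sample with high *Slc26a3*, 3 members were called, since *Slc26a3* (-2.67, adjusted P = 0.0236) and *Slc26a2* (-1.91, adjusted P = 0.00985) were added. *Slc17a4* had a log2 fold change of 0.66 (SE 0.31, adjusted P = 0.199), which was 0.43 without that sample.

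Under GW3965 6 of 9 members were called at day 22, all lower, where 20.7% of all genes were called and 7.05% called lower. *Car1* had a log2 fold change of -3.82 (SE 0.55, adjusted P = 0.000105), *Slc26a2* of -2.38, *Scnn1b* of -2.20, *Slc26a3* of -1.98, and *Slc17a4* and *Hsd11b2* both of -1.78. *Car4*, *Aqp8* and *Guca2a* were not called, with log2 fold changes of -1.03, -0.48 and -0.58. *Car4* was called when only the groups compared were fitted (-1.03, adjusted P = 0.0216). The members' median was -1.78 and that of all genes 0.03. The call of *Slc26a3* (adjusted P = 0.0421) was lost without any 1 of the 3 day 22 samples (0.0908, 0.133 and 0.114 without replicates 1, 2 and 3) or without 3 of the 4 day 0 samples (0.0931 and 0.0655 without replicates 1 and 2 of 22 days, and 0.0582 without replicate 2 of 43 days), and that of *Scnn1b* without replicate 2 of day 22 (0.0564). With the ribosomal term, the replicate block, pan-epithelial scaling or only day 0 samples of the same diet length 5 members were called, *Slc26a3* being lost (adjusted P = 0.127, 0.0865, 0.0645 and 0.0782), so its call held in 7 of 17 alternatives. Whether the diets differ at day 22 is a separate test, given further on, and only *Slc17a4* passed it.

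At day 43 on the standard diet 7 of 9 members were called, all lower, but so much of the transcriptome had moved that 55.1% of all genes were called and 24.2% called lower. *Car1* had a log2 fold change of -4.25 (SE 0.56, adjusted P = 4.91e-06), *Slc26a3* of -4.13, *Slc26a2* of -3.35, *Car4* of -3.21, *Aqp8* of -2.44, *Hsd11b2* of -2.35 and *Slc17a4* of -1.18. *Guca2a* (-0.56, adjusted P = 0.255) and *Scnn1b* (-1.02, adjusted P = 0.126) were not called. The members' median was -2.44 against 0.14 for all genes. Leaving out replicate 1 of day 43, the sample with a RIN of 2.6, ended the call of *Aqp8* (-1.93, adjusted P = 0.0534) and added *Scnn1b* (-2.30, adjusted P = 0.00208). With pan-epithelial scaling the call of *Slc17a4* was lost (-0.63, adjusted P = 0.165). With RIN as a term 6 members were called, as *Car4* (adjusted P = 0.0518) and *Aqp8* (-1.07, adjusted P = 0.406) were lost and *Scnn1b* (0.00779) was added.

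With GW3965 at day 43 there were also 7 of 9 called, all lower, with 45.3% of all genes called and 19.3% called lower. *Car1* had a log2 fold change of -3.28 (SE 0.53, adjusted P = 8.39e-05), *Slc26a3* of -3.05, *Slc26a2* of -2.78, *Car4* of -2.56, *Scnn1b* of -2.21, *Hsd11b2* of -1.96 and *Slc17a4* of -1.04. *Aqp8* (-1.57, adjusted P = 0.101) and *Guca2a* (0.02, adjusted P = 0.981) were not called. *Aqp8* was called when only the groups compared were fitted (-1.60, adjusted P = 0.00174). It was also called without both the lowest-RIN sample and the sample with the highest skeletal muscle sum (-1.57, adjusted P = 0.0152). The call of *Slc17a4* was lost without replicate 3 of day 43 (-0.81, adjusted P = 0.067) and with pan-epithelial scaling (-0.60, adjusted P = 0.226). With RIN as a term 6 were called, as *Car4* was lost (-1.89, adjusted P = 0.0553). The members' median was -2.21 and that of all genes 0.07.

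The day 43 calls on either diet rest on leaving the ribosomal share out of the fit. With that share as a term the calls fell to 0 of 9 members on each diet by edgeR, while the members' log2 fold changes were -3.66 to -0.77 on the standard diet and -2.92 to -0.68 on the GW3965 diet, all below 0. The same fit called 0 of 17063 genes on the standard diet and 160 on the GW3965 diet. Every day 43 sample had a ribosomal share of 10.0% or more and no day 0 sample had more than 6.51%, so day and ribosomal share cannot be told apart there.

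The lowest fold changes of *Car4*, *Aqp8* and *Slc26a3* on each diet were at day 70. On the standard diet 7 of 9 members were called, all lower, where 30.3% of all genes were called and 13.7% called lower. *Car4* had a log2 fold change of -5.96 (SE 0.84, adjusted P = 6.72e-05), *Aqp8* of -5.32 (SE 0.94, adjusted P = 0.000393) and *Slc26a3* of -5.30 (SE 0.81, adjusted P = 0.000126). *Car1* had a log2 fold change of -3.73, *Slc26a2* of -2.69, *Hsd11b2* of -1.76 and *Slc17a4* of -1.18, and the last call was lost without replicate 1 of day 70 (-0.99, adjusted P = 0.0505). *Guca2a* (-0.84, adjusted P = 0.134) and *Scnn1b* (-1.01, adjusted P = 0.177) were again not called. The members' median was -2.69, with all genes at 0.04. Here the ribosomal term left the count at 7, and it was 8 with pan-epithelial scaling and 8 when only the groups compared were fitted, as *Guca2a* was added (adjusted P = 0.00956 and 0.0425).

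On the GW3965 diet at day 70, 9 of 9 members were called, all lower, with 21.5% of all genes called and 6.82% called lower. *Car4* had a log2 fold change of -4.21 (SE 0.76, adjusted P = 0.000614), *Slc26a3* of -3.92, *Car1* of -3.78, *Aqp8* of -2.96, *Hsd11b2* of -2.38, *Slc26a2* of -2.24, *Guca2a* of -1.85, *Slc17a4* of -1.79 and *Scnn1b* of -1.65. The median was -2.38 for the members and 0.11 for all genes. Without replicate 2 of day 70, the sample with high *Slc26a3*, the values were -5.94 for *Slc26a3*, -5.87 for *Car4* and -5.11 for *Aqp8*. *Scnn1b* (adjusted P = 0.043) lost its call without any 1 of the day 70 samples (0.125, 0.0801 and 0.0822 without replicates 1, 2 and 3) or without 3 of the 4 day 0 samples (0.114 and 0.0605 without replicates 1 and 2 of 22 days, and 0.0648 without replicate 2 of 43 days), and *Aqp8* without replicate 3 of day 70 (-2.57, adjusted P = 0.0649). The count was 8 with the ribosomal term, the replicate block or pan-epithelial scaling, where *Scnn1b* was lost (adjusted P = 0.0522, 0.0616 and 0.182), and 8 when only the groups compared were fitted, where *Aqp8* was lost (0.0772).

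**Figure D2:**
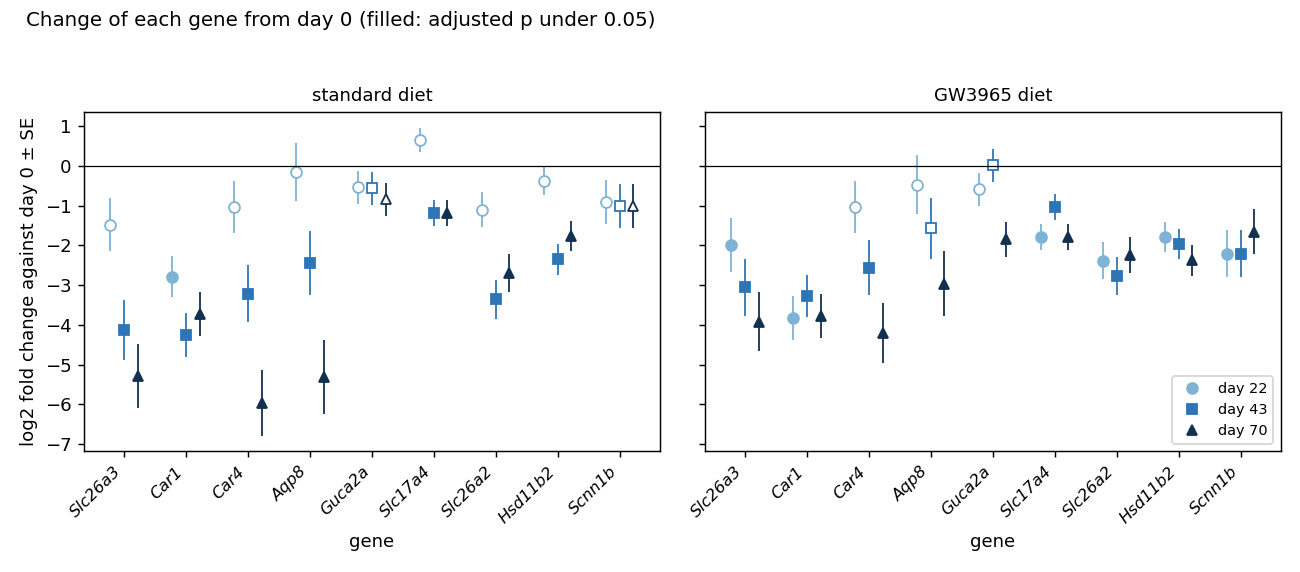
Log2 fold change of each member from day 0 (edgeR, bars are SE) at days 22, 43 and 70 on each diet, with filled points where the adjusted P was under 0.05. On the standard diet *Car4*, *Aqp8* and *Slc26a3* reach values below -5 at day 70 and *Guca2a* is above -1, and on the GW3965 diet all 9 points of day 70 are filled.

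Recovery was looked for in the steps between successive days, and 0 of 9 members were called higher by edgeR in any of the 4 steps. This holds for counts with TMM factors. In TPM, as given above, 4 members had every day 70 sample above every day 43 sample on the standard diet. On the GW3965 diet *Scnn1b* did. How many of all genes were apart in this way in TPM was not counted. The general epithelial gene *Krt8* was also apart on the standard diet, with 367.7–528.4 TPM at day 43 and 1939–5648 at day 70. From day 22 to day 43 on the standard diet 7 of 9 members were called, all lower, against 33.7% of all genes called and 15.7% called lower. *Slc26a3* had a log2 fold change of -2.65 (SE 0.73, adjusted P = 0.00819), *Aqp8* of -2.30, *Slc26a2* of -2.25, *Car4* of -2.18, *Hsd11b2* of -1.97, *Slc17a4* of -1.84 and *Car1* of -1.47. *Guca2a* and *Scnn1b* had log2 fold changes of -0.03 and -0.10. This count rests on single samples. Without replicate 1 of day 22 it was 3, as *Slc26a3* (-1.46, adjusted P = 0.127), *Car1* (-1.50, 0.0666), *Car4* (-1.45, 0.161) and *Aqp8* (-1.66, 0.176) were lost. Without replicate 1 of day 43 it was 4, as *Car1* (-1.22, 0.125), *Car4* (-1.78, 0.094) and *Aqp8* (-1.785, 0.119) were lost. *Car1* was also lost without replicate 2 of day 22 (-1.49, 0.0555), replicate 3 of day 22 (-1.40, 0.0703) or replicate 3 of day 43 (-1.61, 0.0503), and *Aqp8* without replicate 2 of day 43 (-2.49, 0.0536). The count was 2 with RIN as a term, 0 with the ribosomal share as a term, and 4 when libraries were scaled to the pan-epithelial genes. The fit with the ribosomal share called 0 of 17063 genes. The members' log2 fold changes there were -2.69 to 0.11, with 8 of 9 below 0.

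From day 22 to day 43 on the GW3965 diet edgeR called 0 of 9 members, where 0.264% of all genes were called, with 2 members at an unadjusted P under 0.05 and 0 called by DESeq2. The unadjusted values were *Car4*, with a log2 fold change of -1.52 (SE 0.70), and *Slc17a4*, with 0.75 (SE 0.34). The steps of the diets were not tested against each other.

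From day 43 to day 70 on the standard diet 2 of 9 members were called, *Aqp8* (-2.88, SE 0.86, adjusted P = 0.00846) and *Car4* (-2.75, SE 0.73, adjusted P = 0.00393), both lower. Of all genes 49.7% were called and 26.7% called lower, so 2 of 9 is near the background. The remaining members had log2 fold changes from -1.17 (*Slc26a3*) to 0.66 (*Slc26a2*), and the median of all 9 was near 0. The count was 4 with pan-epithelial scaling and 0 with the ribosomal term. The fit with that term called 0 of 17063 genes, and the log2 fold changes there were -2.31 for *Car4* and -2.56 for *Aqp8*.

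For the same step on the GW3965 diet 1 of 9 members was called, *Guca2a* (-1.86, SE 0.45, adjusted P = 0.0027), lower, with 39.2% of all genes called and 17.9% called lower. The count hung on 2 samples. Without replicate 2 of day 70, 6 members were called, all lower: *Guca2a* with *Slc26a3* (-2.87, adjusted P = 0.00124), *Car4* (-3.30, adjusted P = 0.00112), *Aqp8* (-3.52, adjusted P = 0.0019), *Slc17a4* (-1.08, adjusted P = 0.0244) and *Hsd11b2* (-1.07, adjusted P = 0.0273). Without replicate 3 of day 43, 3 were called, with *Car4* (-1.95, adjusted P = 0.0448) and *Slc17a4* (-0.98, adjusted P = 0.0336) added. The count was 0 with the ribosomal term, a fit that called 0 of 17063 genes and gave *Guca2a* a log2 fold change of -1.04. It was also 0 when the fit held these groups alone, with *Guca2a* at -1.87 (adjusted P = 0.0569, edgeR).

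The split of all genes into higher and lower depends on how libraries are scaled. Scaled to the 7 pan-epithelial genes in place of TMM, on the standard diet 832 of 867 called genes were higher at day 22 against 1290 of 1630, 5978 of 6835 at day 43 against 5261 of 9394, and 759 of 2363 at day 70 against 2843 of 5174. On the GW3965 diet the splits were 1570 of 1659 against 2331 of 3534, 4198 of 4594 against 4432 of 7729, and 5662 of 5885 against 2513 of 3677. For the steps they were 1721 of 2016 against 3069 of 5754 and 296 of 7542 against 3918 of 8475 on the standard diet, and 12 of 12 against 39 of 45 and 2821 of 3846 against 3638 of 6697 on the GW3965 diet. The median of all genes moved to 0.25, 0.74 and -0.36 at the 3 days on the standard diet, to 0.33, 0.51 and 0.90 on the GW3965 diet, and to 0.40 and -1.12 and to 0.14 and 0.43 in the steps. Between the diets it moved to -0.13, -0.33 and 1.09 at days 0, 43 and 70, and for the diet differences to -0.18 at day 43 and 1.22 at day 70. Between the diets at day 70 the split was 4533 of 4540 against 298 of 312. For the diet difference at day 22 the split was 1 of 1 against 3 of 4. No called value of a member changed sign under this scaling.

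The diets were compared within each day in a fit with the ribosomal share as a term. At day 0 edgeR called 0 of 9 members, where 0.0293% of all genes were called, with 0 at an unadjusted P under 0.05 and 0 by DESeq2. At day 22 it called 1, *Slc17a4*, lower with GW3965, while 0.135% of all genes were called and 0.0469% called lower. *Slc17a4* had 8.87 ± 1.19 CPM (SD, n = 3) with GW3965 and 38.2 ± 9.94 (SD, n = 3) without, a log2 fold change of -2.21 (SE 0.34, adjusted P = 0.00633), with 3 of 3 samples below all standard diet samples. The call was lost without replicate 2 or replicate 3 of the GW3965 group (-2.13, adjusted P = 0.0811, and -2.16, adjusted P = 0.0749). All 9 members had a log2 fold change below 0 at day 22, with a median of -0.93, and *Slc26a3*, *Car4* and *Aqp8* were above 0 in at least 1 alternative.

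At day 43 edgeR called 0 of 9 members, where 0.0293% of all genes were called, with 1 at an unadjusted P under 0.05 (*Scnn1b*, log2 fold change -1.65, SE 0.74, which was -0.32 without replicate 1 of the standard diet) and 0 by DESeq2. The members' median was 0.53, with 1 of 9 below 0. For *Slc26a3*, *Car1* and *Hsd11b2* every GW3965 sample was above every standard diet sample in CPM. In TPM this was so for *Slc26a3*, *Hsd11b2*, *Aqp8* and *Slc17a4*, while *Car1* overlapped (34.5–140.4 against 19.3–39.4). How many of all genes were apart in this way was not counted. At day 70 edgeR called 0 of 9, where 1.83% of all genes were called, with 3 at an unadjusted P under 0.05 and 2 by DESeq2. Those 3 were *Guca2a*, with a log2 fold change of -1.38 (SE 0.44, adjusted P = 0.103), *Aqp8*, with 2.66 (SE 0.90, adjusted P = 0.118), and *Car4*, with 1.69 (SE 0.75, adjusted P = 0.229). The values of *Aqp8* and *Car4* rest on replicate 2 of the GW3965 group, without which they were 0.55 (adjusted P = 0.698) and 0.04 (adjusted P = 0.978), and that of *Guca2a* was -0.87 without replicate 1 of the standard diet. *Guca2a* was called without replicate 2 of the GW3965 group (-1.83, adjusted P = 0.0391), and *Aqp8* without replicate 3 (3.12, adjusted P = 0.0445). With pan-epithelial scaling 4 members were called higher with GW3965, *Aqp8* (3.10, adjusted P = 0.0243), *Car4* (2.21, adjusted P = 0.0313), *Slc26a3* (1.85, adjusted P = 0.0398) and *Slc26a2* (1.26, adjusted P = 0.0451), where 4540 of 17063 genes were called.

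Whether the change from day 0 differed between the diets was tested as a difference of differences. For day 22, 1 of 9 members was called, *Slc17a4* (-2.52, SE 0.43, adjusted P = 0.0423), where 0.0234% of all genes were called and 0.00586% called lower. That is, it was the 1 gene called lower among 17063. The value lay below 0 in 23 of 23 alternatives, from -2.68 to -2.21, but its adjusted P ranged from 6.54e-06 to 0.379 and it was called in 4 of them. Leaving out any 1 of the 14 samples of these groups ended the call. The adjusted P was 0.158, 0.183 and 0.0625 without replicates 1, 2 and 3 of day 22 on the standard diet and 0.0508, 0.245 and 0.208 without those on the GW3965 diet. Without a day 0 sample of the standard diet it was 0.069 and 0.0722 (replicates 1 and 2 of 22 days) and 0.137 and 0.175 (of 43 days), and on the GW3965 diet 0.0937 and 0.117, and 0.119 and 0.0882. For day 43 edgeR called 0 of 9 members and 0% of all genes, with 0 members at an unadjusted P under 0.05 and 0 by DESeq2. For day 70 it also called 0 of 9 members and 0% of all genes, with 1 member at an unadjusted P under 0.05 and 0 members by DESeq2. Of all genes DESeq2 called 309, and edgeR called 418 without replicate 3 of day 70 on the GW3965 diet. That 1 was *Aqp8*, with 2.42 (SE 1.13, adjusted P = 0.38), which was 0.31 without replicate 2 of day 70 on the GW3965 diet. The other 8 had values from -0.89 to 1.84, and the highest of these, that of *Car4*, ranged from 0.19 to 2.52 over 23 alternatives.

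Markers of other cells moved with the days. Of the 17063 genes tested, 1290, 5261 and 2843 were called higher at days 22, 43 and 70 on the standard diet. There 340, 4133 and 2331 were called lower. On the GW3965 diet 2331, 4432 and 2513 were called higher and 1203, 3297 and 1164 lower. The lists are short, and a count of 1 gene in a list is not read as a change of its cells. The gene that leads each list is the one with the highest mean TPM over the 26 samples. Stratified squamous keratins and their partners, genes of the anal and not the colonic lining, had 7 of 8 genes called higher at day 43 and 8 of 8 at day 70 on each diet, and none called (0) at day 22 by edgeR. The list summed to 8.08–11.1 CPM over the day 0 samples. At day 43 the sums were 416.0, 1338 and 630.5 CPM on the standard diet and 1787, 141.4 and 3095 on the GW3965 diet, and at day 70 they were 2543, 4115 and 3459, and 24530, 7.26 and 10560. *Krt13* had the highest mean TPM of the list, while in CPM *Krt10* reached 7135 and *Krt13* 4968. *Krt13*, *Krt1* and *Trp63* had 0 counts in 2 samples each. The sample whose squamous sum was as low as at day 0, GW3965 day 70 replicate 2, was the one with the highest *Slc26a3*, *Car4* and *Aqp8* of the 6 day 70 samples. Replicate 1 of that group had the highest squamous sum and the lowest value of all 9 members among the 3 samples of that group, and its skeletal muscle list, led by *Acta1*, summed to 16360 CPM where no other sample passed 667.3. *Myh4* of that list had 0 counts in 19 samples. Its 5 genes were all called higher at day 70 with GW3965, where replicates 2 and 3 summed to 11.01 and 23.45 CPM, and 2 of 5 on the standard diet, where the sums were 8.99, 667.3 and 125.9 CPM. The GW3965 samples of day 0 had 21.6–61.9 CPM. The part of these tissues in the result was not tested.

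The pan-epithelial list, led by *Krt8*, had 3 of 7 genes called lower at day 43 and 1 of 7 called higher at day 70 on the standard diet, and 1 of 7 called lower and 0 called by edgeR on the GW3965 diet. It summed to 6384–12760 CPM over the day 0 samples, to 3809–7639 at day 43 over both diets, and at day 70 to 17820, 8137 and 9357 CPM on the standard diet and 2726, 9299 and 9830 on the GW3965 diet. Stem and proliferating cell genes, led by *Smoc2*, had 6 of 7 called higher at day 70 on the standard diet and 2 of 7 on the GW3965 diet, and summed to 752.2, 798.6 and 834.1 CPM and to 322.8, 434.3 and 638.0 CPM there, against 184.6–339.9 CPM over the day 0 samples. Immune genes, led in TPM by *S100a8* (0.462–8.82 TPM over the day 0 samples) while *Jchain* reached the highest CPM, had 5, 6 and 2 of 7 called higher at days 22, 43 and 70 on the standard diet and 6, 7 and 5 of 7 on the GW3965 diet, and 1 of 7 was called lower at day 70 on the standard diet. Their sums were 350.8–2433 CPM at day 0 and reached 8157, 16420 and 19220 at day 43 on the standard diet and 9490, 15770 and 4509 on the GW3965 diet. Smooth muscle genes, led by *Tagln*, had 5 of 6 called lower at day 43 and 6 of 6 at day 70 on the standard diet, and 1 and 2 of 6 on the GW3965 diet, with sums of 5448–23420 CPM at day 0 and 1580–7081 at day 70. Fetal-like epithelium genes, led by *Ly6a*, summed to 504.9–809.4 CPM over the day 0 samples. At day 22 the sums were 1086–1898 CPM on the standard diet and 1680–2305 on the GW3965 diet. At day 43 they were 2386–4033 and 2568–4601, and at day 70 2191–2927 and 1482–5562. Every later sample thus lay above every day 0 sample. The part of these lists in the members' result was not tested.

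**Figure D3:**
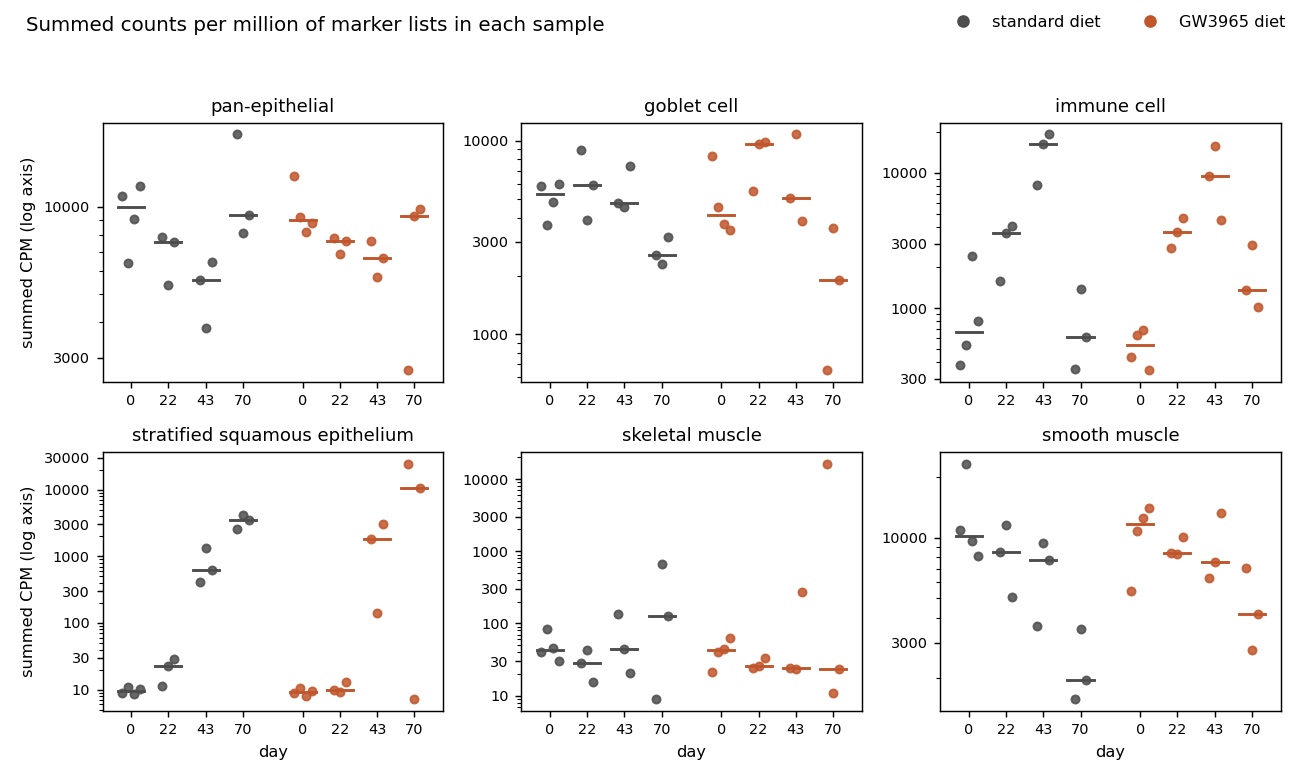
Summed CPM of marker lists (log axis) in each of the 26 samples by day, standard diet in grey and GW3965 in orange, with a line at each group's median. The squamous list is at 28.4 CPM or less at days 0 and 22 and at 141.4 CPM or more later, except in 1 GW3965 day 70 sample at 7.26 CPM.

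The further marker lists had these results at days 22, 43 and 70, to be read beside the counts of all genes called given above. Goblet cell genes, led by *Spink4*, had 1, 1 and 2 of 7 called higher and 0, 1 and 3 called lower on the standard diet, and 1, 1 and 0 higher and 0, 1 and 3 lower on the GW3965 diet by edgeR, with sums of 3445–8315 CPM at day 0 and 655.4–3557 at day 70. Enteroendocrine genes, led by *Pyy*, had 0, 2 and 2 of 3 called lower and 0, 1 and 1 on the GW3965 diet, with sums of 108.8–260.4 CPM at day 0 and 25.8–133.6 at day 70. Tuft cell genes, led by *Dclk1*, had 0, 1 and 1 of 2 called lower on the standard diet and 0 on the GW3965 diet, with sums of 10.9–15.5 CPM at day 0 and 4.78–12.7 at day 70. Fibroblast genes, led by *Dcn*, had 1, 2 and 1 of 4 called higher and 0, 1 and 1 on the GW3965 diet, with sums of 865.5–1645 CPM at day 0, 3454–4204 at day 43 on the standard diet and 1349–2419 on the GW3965 diet, and 1050–2558 at day 70. Enteric neuron and glia genes, led by *Uchl1*, had 0, 1 and 3 of 3 called lower and 0, 1 and 2 on the GW3965 diet, with sums of 25.95–52.1 CPM at day 0 and 4.52–12.2 at day 70 on the standard diet and 9.69 or more on the GW3965 diet, where every day 70 sample was below every day 0 sample of that diet. Between the diets within a day edgeR called 0 genes of all these lists, and of the other lists it called 1 of 2 guanylin signalling genes lower and 2 of 7 immune genes higher with GW3965 at day 70.

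Markers of position along the gut were read too. Distal genes, led by *Hoxb13*, had counts in all samples and summed to 540.8–989.1 CPM at day 0 and to 137.9–448.8 at day 70. Of the 3, 2 were called lower at day 43 on each diet and 1 at day 70 on each diet. Of the small intestinal enterocyte genes *Sis* and *Apoa1* had 0 counts in 11 samples each, *Apoa4* in 6, and *Lct* and *Alpi* in 2 each, while *Fabp2*, which leads the list, had counts in all samples and 1.23–29.3 CPM. The list summed to 30.0 CPM at most, 4 of its 6 genes were tested, and 1 was called higher at day 43 with GW3965.

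Other lists of colonocyte genes were read beside the members, each as the number called among those tested. Of all genes 1.99%, 24.2% and 13.7% were called lower at days 22, 43 and 70 on the standard diet, and 7.05%, 19.3% and 6.82% on the GW3965 diet. From day 43 to day 70 on the standard diet 3918 of 17063 genes were called higher. Of 8 colonocyte transcription factors (such as *Cdx2*, *Hnf4a* and *Klf4*) 0, 7 and 3 were called lower at days 22, 43 and 70 on the standard diet, and 2, 5 and 3 on the GW3965 diet. At day 70 on the standard diet they included the vitamin D receptor *Vdr*, which had a log2 fold change of -2.15 (SE 0.45, adjusted P = 0.0014), and *Hnf4g*, which fell by 1.40 (SE 0.50, adjusted P = 0.0391). With GW3965 these genes had -1.68 and -1.49 (edgeR, adjusted P = 0.00914 and 0.0375). From day 43 to day 70 on the standard diet 7 of the 8 were called higher, with a median log2 fold change of 1.5, where 0 of 9 members were called higher and their median was near 0. Scaled to the pan-epithelial genes, 1 of 8 was called higher, and with the ribosomal term 0, where 0 of 17063 genes were called. Of brush border and surface genes 1, 7 and 2 of 11 were called lower at the 3 days on the standard diet and 2, 6 and 2 on the GW3965 diet, and 6 of 11 were called higher from day 43 to day 70 on the standard diet (3 with pan-epithelial scaling, 0 with the ribosomal term). The 2 of 11 at day 70 on the standard diet are near the share of all genes called lower. Under pan-epithelial scaling the median log2 fold change from day 43 to day 70 on the standard diet turned from 1.18 to -0.02 for the brush border list, from 0.65 to -0.46 for ion and water transport, from 0.79 to -0.42 for the aldosterone list and from 0.42 to -0.61 for the carbonic anhydrases, and that of the transcription factors went from 1.5 to 0.40. The contrast with the members in that step was not tested.

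Among brush border genes the protease gene *Mep1a* fell from 148.5 ± 59.8 CPM (SD, n = 4) to 17.6 ± 7.38 (SD, n = 3) at day 70 on the standard diet, with a log2 fold change of -3.08 (SE 0.51, adjusted P = 0.000251). On the GW3965 diet its value was -2.69 (edgeR, adjusted P = 0.000742). *Dhrs9*, a retinol dehydrogenase gene, went the other way, from 3.55 ± 2.24 CPM (SD, n = 4) to 113.8 ± 121.4 (SD, n = 3), a log2 fold change of 4.99 (SE 0.67, adjusted P = 4.8e-05), and was also called higher at day 22 (3.28, adjusted P = 0.0025) and on the GW3965 diet at day 70 (5.29, adjusted P = 4.22e-05). *Cyp2c55*, a cytochrome P450 gene, fell by 3.19 at day 22 on the standard diet (SE 0.73, adjusted P = 0.00733) and by 7.60 on the GW3965 diet (SE 0.98, adjusted P = 4.15e-05), where it was down to 0.129 ± 0.117 CPM (SD, n = 3).

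The carbonic anhydrases split. *Car2*, the other main cytosolic form, fell from 720.0 ± 161 CPM (SD, n = 4) to 96.1 ± 20.0 (SD, n = 3) at day 70 on the standard diet, with a log2 fold change of -2.91 (SE 0.35, adjusted P = 2.21e-05), and was called lower at day 22 on both diets (-1.46 and -1.79). On the GW3965 diet its day 70 value was -2.25 (edgeR, adjusted P = 0.00012). *Car12*, a membrane form known from hypoxic tumours, rose from 4.21 ± 0.86 CPM (SD, n = 4) to 36.3 ± 10.6 (SD, n = 3), a log2 fold change of 3.11 (SE 0.60, adjusted P = 0.000753), and on the GW3965 diet by 4.15 (SE 0.62, adjusted P = 0.000116). Of the 3 genes in the list 2 were called higher and 1 lower at day 70 on each diet. Of guanylin signalling, *Guca2b*, which encodes uroguanylin, was 1 of 2 genes called higher at day 70 on the standard diet (1.61, SE 0.31, adjusted P = 0.00078), and 0 of 2 were called by edgeR with GW3965 (*Guca2b* 0.04, adjusted P = 0.94). *Gucy2c*, the receptor of both peptides, was the other gene.

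Other genes of sodium uptake under aldosterone were read next, beside the shares of all genes called lower given above. Of 5 genes 0, 4 and 2 were called lower at days 22, 43 and 70 on the standard diet and 3, 4 and 2 on the GW3965 diet. At day 70 these were the channel subunit *Scnn1g* (-2.77, SE 0.64, adjusted P = 0.00276, and -3.64 with GW3965) and the mineralocorticoid receptor *Nr3c2* (-1.55, SE 0.40, adjusted P = 0.00581, and -1.36 with GW3965). Of 9 other genes of ion and water transport 1, 6 and 3 were called lower on the standard diet and 1, 5 and 3 on the GW3965 diet, with 1 called higher at days 22 and 70 there. They included the potassium pump *Atp12a* (-2.91, SE 0.65, adjusted P = 0.00225 at day 70 on the standard diet, and -1.43, adjusted P = 0.0972, with GW3965) and the magnesium channel *Trpm6* (-2.47, SE 0.50, adjusted P = 0.00106, and -1.58, adjusted P = 0.0209). Of 4 transporters of short-chain fatty acids and bile acids 2 were called lower at day 70 on the standard diet, *Slc5a8* (-1.56, adjusted P = 0.0244) and *Slc51b* (-1.76, adjusted P = 0.0256), and 0 by edgeR with GW3965 (-0.79 and -0.24). The GW3965 samples of day 70 were widely spread, with 152.0 ± 139.3 CPM for *Slc5a8* (SD, n = 3), 6.99 ± 8.03 for *Slc51b* and 260.3 ± 311.5 for *Atp12a*. A call on 1 diet alone is not a test between the diets.

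**Figure D4:**
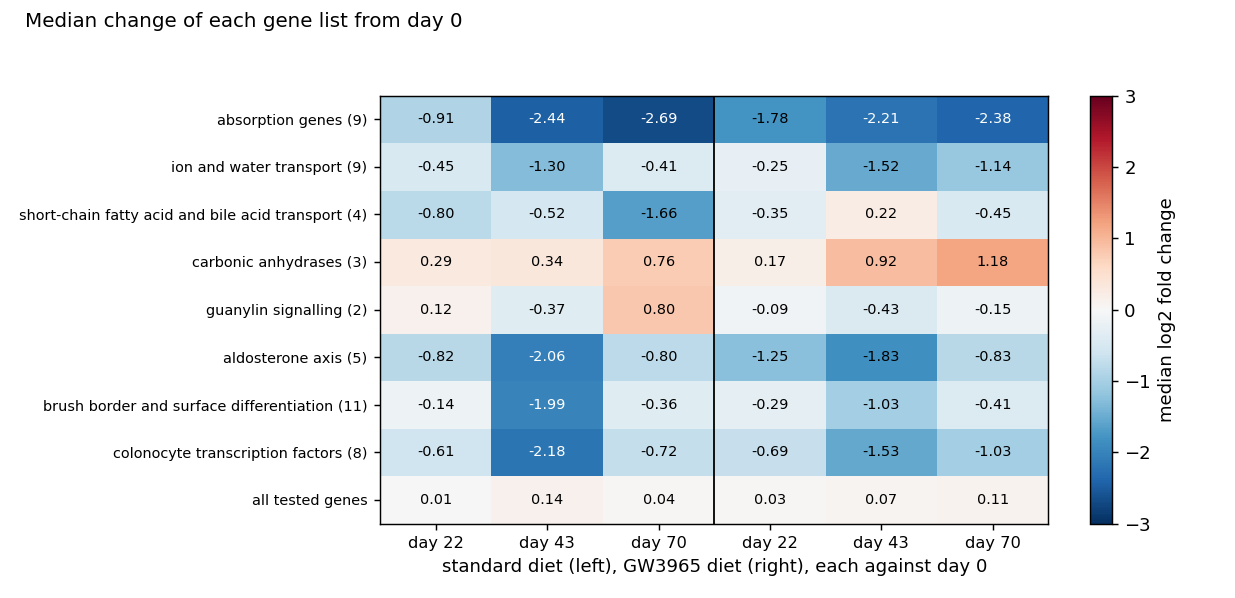
Median log2 fold change from day 0 of the members and of the other gene lists, by day and diet, on a colour scale. The members have the lowest median of these lists in each column, -2.69 at day 70 on the standard diet. Members and lists were chosen with earlier results of these data known, so this order is a description only.

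The members did not move as a single block. Over the 26 samples the correlation of log2 CPM between pairs of members, given as a description, had a median of 0.69 over 36 pairs (0.17–0.97). With each group's mean taken out, the median was 0.55 (-0.12–0.95), highest for *Car4* with *Aqp8* and lowest for *Aqp8* with *Scnn1b*. The samples share days, libraries and depth. The genes most like the mean of the members over the 26 samples were *Klk1* (Pearson r = 0.97), *Gm5485* (0.96), *Ces2a* (0.95), *Hoxb13* (0.94), *Kcnk5* (0.94), *Decr2* (0.94), *Htr4* (0.94), *Dio1* (0.94), *Tinag* (0.93) and *Slc39a5* (0.93). *Hoxb13* is also 1 of the 3 distal position genes.

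In GRCm38 the members lie on 8 chromosomes, *Slc26a3* on chromosome 12 (31390871 to 31473917, plus strand, with the leading transcript from 31438219), *Car4* on 11 (84957786 to 84966044, plus) and *Aqp8* and *Scnn1b* both on 7 (123462291 to 123468004 and 121865038 to 121918514, plus). *Car1* is on 3 (14766216 to 14808368, minus), *Guca2a* on 4 (119637704 to 119639471, plus), *Slc17a4* on 13 (23895890 to 23915009, minus), *Slc26a2* on 18 (61192919 to 61211612, minus) and *Hsd11b2* on 8 (105518755 to 105523988, plus). All are annotated as protein-coding. Over all samples together, 1 transcript held 90.1% or more of the counts of 7 members, and 68.8% for *Aqp8*. Shares differed between groups. That of *Scnn1b* was 73.0% and 72.4% at days 22 and 43 with GW3965, and 74.5% at day 43 on the standard diet. A transcript annotated for nonsense-mediated decay held 27.0%, 27.6% and 25.5% there. For *Aqp8* the share was 55.6% at day 43 on the standard diet, where a processed transcript held 12.8%.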

How the data were processed

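Poly(A) RNA of 26 colon samples in 8 groups of diet and day was compared. The authors ran kallisto against GRCm38 transcripts and deposited, per transcript and sample, estimated counts (expected_counts, not normalized) and TPM (tpm, scaled for length and depth). Versions of kallisto and of the transcript release were not given in the sources used. Of 119414 transcripts 116728 (97.8%) were matched to 35975 genes, and estimated counts and TPM were summed per gene. The unmatched transcripts held 0.615–0.999% of the counts. No pair of samples was identical (0 pairs). Depth was 18195345 to 41522204 counts per sample.

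Sums were rounded and fitted in edgeR 4.0.16 (quasi-likelihood F-test, TMM factors, filterByExpr over the 8 groups, 17063 genes) with limma 3.58.1 and R 4.3.3. Comparisons over time within a diet had group alone as term. Comparisons between diets also had the centred percentage of counts on 88 ribosomal protein genes. P-values were adjusted by Benjamini-Hochberg over all tested genes and called under 0.05, and the SE is the absolute log2 fold change divided by the square root of F. CPM were counts over library size times TMM factor, and log2 CPM had a prior count of 0.5.

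The members and the further pathway and marker lists were chosen with earlier results of these data known. From each pathway list the genes named were up to 2 called with the smallest P at day 22 and up to 2 at day 70 on the standard diet. Values on the GW3965 diet are given for part of them. From each marker list reported the gene with the highest mean TPM over all samples was named, and the 10 genes outside the members with the highest correlation to their mean were named as most alike. Alternatives were DESeq2 1.42.0, RLE factors, no filter on low counts, the ribosomal term added or dropped, RIN as a term, a replicate block, scaling to the pan-epithelial genes, only the groups compared, only day 0 samples of the same diet length, and each of 26 samples left out. One more, without both the lowest-RIN sample and the sample with the highest skeletal muscle sum, was chosen after seeing the data. Tables and plots used Python 3.11.15, pandas 2.3.3, numpy 2.4.6 and matplotlib 3.10.9. No sample was left out of the values reported.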

Additional observations from a re-analysis of the deposited data

Results flagged for a closer look

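In 3 of the 18 groups of 4 day 0 samples tested (each of 9 members on each diet), 1 sample lay far from the other 3. The measure is the gap from the most distant sample to its nearest neighbour, divided by the range of the group. It was 0.877 for *Guca2a* on the standard diet, where replicate 2 of 22 days had 111.7 CPM and the others 188.4–199.2. It was 0.887 for *Slc26a2* and 0.838 for *Hsd11b2* on the GW3965 diet, both in replicate 1 of 22 days, with 797.0 CPM against 552.0–579.7 and 536.5 CPM against 357.6–386.6. Chance gives about 1 in 20 groups such a gap.

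*Slc17a4* differed between the diets in its change from day 0 to day 22 by a test of the difference itself, with a log2 value of -2.52 (edgeR, adjusted P = 0.0423, 0.379 at most over 23 alternatives and 6.54e-06 at least). In CPM, on the standard diet 3 of 3 day 22 samples were above all day 0 samples (log2 fold change 0.66, adjusted P = 0.199, not called, and in TPM 2 of the 3 lay below the highest day 0 sample), and on the GW3965 diet 3 of 3 were below. Cage and diet cannot be told apart at these days, and the cause was not tested.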

How the results depend on the processing

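The number of members called was within 1.5 times its reported value under all alternatives run for day 70 against day 0 on each diet, for day 22 against day 0 on the GW3965 diet, and, at 0 by edgeR and by DESeq2, for day 43 against day 22 on the GW3965 diet, the diets at days 0 and 43, and the diet differences at days 43 and 70.

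With the ribosomal percentage as a term, 160 of 17063 genes were called for day 43 against day 0 on the GW3965 diet. In the other fits with that term named next, 0 genes were called. The count of members was 0 with that term for day 43 against day 0 on both diets, for day 43 against day 22 on the standard diet and for day 70 against day 43 on both diets (edgeR). Without that term it was 0 for the diet difference at day 22. With RIN as a term it was 2 for day 43 against day 22 on the standard diet, 3 for day 70 against day 43 on the GW3965 diet, 1 for the diets at day 70 and 0 for the diet difference at day 22. With pan-epithelial scaling these were 4, 2, 4 and 0, and day 70 against day 43 on the standard diet had 4. DESeq2 gave 2 for day 70 against day 43 on the GW3965 diet and 2 for the diets at day 70. Fitting only the groups compared gave 0 for day 70 against day 43 on the GW3965 diet. No filter on low counts and the replicate block each gave 0 for the diet difference at day 22. Without both samples set apart, chosen after seeing the data, the diets at day 70 gave 1. The cause was not tested.

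Leaving out 1 sample at a time, the count ranged over 1–3 for day 22 against day 0 on the standard diet, 3–6 for day 43 against day 22 on that diet, 1–6 for day 70 against day 43 on the GW3965 diet, 0–1 for the diets at day 22, 0–1 for the diets at day 70 and 0–0 for the diet difference at day 22.

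Replicate numbers do not pair samples: correlations of deviations from group means were -0.36 to 0.42 (median -0.02, 45 pairs) between samples of the same number and -0.39 to 0.43 (median -0.001, 90 pairs) between others. With the block, 5 members were called at day 22 and 8 at day 70 against day 0 on the GW3965 diet.

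Of the values of single members under alternatives, 2360 kept their direction and side of the threshold, 98 were no longer called, 34 were newly called, and 127 that were not called in either fit changed sign. For the other lists, 11324 counts were within 1.5 times, 366 were higher and 532 lower. Each member passed the filter on low counts, so depth kept no member out of the tests. The tests rest on 3 or 4 samples per group, in cages shared within a group at days 0, 22 and 43. The study's statements differ on whether a sample was a pool of mice or a single mouse.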
